A study of Mus musculus with 12 samples.

Results

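The adrenergic receptor genes are the 3 alpha1 genes *Adra1a*, *Adra1b* and *Adra1d*, the 3 alpha2 genes *Adra2a*, *Adra2b* and *Adra2c*, and the beta gene *Adrb1*. These 7 of the 37991 genes in the count tables were taken by name, through their Ensembl identifiers. No measured value entered this rule, but earlier results of these data were known when the members were chosen. Their mRNA was measured by poly(A) RNA-seq in the hippocampi of 12 C57BL/6N mice, of which 6 carried the label Wildtype and 6 the label Gadd45a-KO. All 12 mice were 6 to 7 months old by the sample labels and had been trained in the passive avoidance (PA) test, in which a mouse receives a foot shock on entering a dark compartment, and the tissue was taken 1 h later. No untrained group was analysed here, so that training is common to both labels. The Gadd45a-KO mice are Gadd45a-/-, a constitutive deletion present in every cell of the animal, in which the first exons of *Gadd45a* were replaced by a neomycin cassette while the last exon remained. The Wildtype mice were siblings from the same crosses of heterozygotes.

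Adrenergic receptors are G protein-coupled receptors for noradrenaline and adrenaline. In the hippocampus, noradrenaline comes from axons of the locus coeruleus in the brainstem, and its release during arousal is known to affect synaptic plasticity and memory of aversive events. Alpha1 receptors act through Gq and phospholipase C, alpha2 receptors act through Gi and Go and also serve as autoreceptors that limit noradrenaline release, and beta receptors act through Gs and cyclic AMP. The comparison between the labels asks whether the mRNA of these receptors differs between hippocampi of both genotypes after aversive training.

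All members share the Asp-Arg-Tyr motif at the inner end of the third transmembrane helix, which is known to take part in coupling to the G protein. The windows of 30 bases around its codons are shown because they let the reader see how alike the receptor genes are around this motif. The genome is NCBIM37, the build used for the alignments, each window is written 5′ to 3′ in the direction of the gene, and the 9 capital bases are the codons of the motif.
Adra1a (chr14:67256769-67256798, plus strand): atcatctccatcGACCGATACattggtgtg
Adra1b (chr11:43649150-43649179, minus strand): gccatctccattGACCGCTACattggggtg
Adra1d (chr2:131387329-131387358, minus strand): accatctctgtgGACCGGTACgtgggtgtg
Adra2a (chr19:54121125-54121154, plus strand): gccatcagccttGACCGCTACtggtccatc
Adra2b (chr2:127189628-127189657, plus strand): gccatcagtctgGACAGATACtgggcagtg
Adra2c (chr5:35622964-35622993, plus strand): gccattagtctgGACCGCTACtggtcggtg
Adrb1 (chr19:56797312-56797341, plus strand): gtcatcgccctgGACCGCTACctcgccatc
In the annotation of this build, *Adra2a*, *Adra2b*, *Adra2c* and *Adrb1* have 1 exon, *Adra1d* has 2, *Adra1a* 3 and *Adra1b* 5 in the longest transcript. Each window lies in a coding exon and is unbroken in the genome. The codons were spelled GACCGCTAC in 4 members, and *Adra1a*, *Adra1d* and *Adra2b* each had a spelling of their own. Pairs of members from the same class matched at 22 to 25 of the 30 bases over 6 pairs, and pairs from different classes at 15 to 22 bases over 15 pairs. Stretches of 51 bases, the read length, were compared by exact match on the same strand with the transcripts of 22754 protein-coding genes. Inexact matches and sequence outside these transcripts were not searched. For 6 members, none of the stretches occurred in a transcript of another gene. For *Adra1a*, 8 of 6944 stretches (0.115%) occurred in transcripts of 3 other genes.

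Between 44594261 and 55540601 reads per library fell on genes, and counts were scaled to CPM, the count at a library total of 1000000 reads, with the trimmed mean of M-values (TMM) factors of edgeR. The targeted gene was examined first. Reads on *Gadd45a* ranged from 2.19 to 3.43 CPM in the libraries labelled Wildtype and from 20.5 to 23.1 CPM in those labelled Gadd45a-KO (log2 fold change 3.06 ± 0.09, standard error, with an adjusted p of 1.33e-10 by the quasi-likelihood F test of edgeR), which goes against the label, and counts per gene do not separate the exon that remained from those replaced. Libraries are therefore named by their labels, and every direction is read from them. Markers of hippocampal neurons were present in all libraries. Their summed level over 9 genes was 1368 to 1461 CPM under the label Wildtype and 1110 to 1420 CPM under the label Gadd45a-KO. Gadd45a-KO replicates 2 to 6, at 1110 to 1301 CPM, lay below every library labelled Wildtype. A pair of libraries stood apart in thalamic markers. The summed level of 11 thalamic markers was 399 CPM in Gadd45a-KO replicate 2 and 633 CPM in Gadd45a-KO replicate 3, against 129 to 172 CPM in the libraries labelled Wildtype and 139 to 171 CPM in the other 4 labelled Gadd45a-KO, and all 11 markers were highest in these 2 libraries. For the receptor genes, differences between the labels that rest on them are given with and without them. Levels per length of exons and the fold changes of other genes include them. Oligodendrocyte markers summed to 4398 CPM in Gadd45a-KO replicate 3 and to at most 2161 CPM in any other library. The share of alignments that fell on no annotated feature was 12.64 to 13.91% under the label Wildtype and 11.47 to 12.57% under the label Gadd45a-KO, without overlap. The part of these differences between libraries in the results was not tested. In these bulk samples, fewer cells of a type and less RNA per cell cannot be told apart.

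Per length of annotated exons, *Adra1d* had the highest level of the receptors, and *Adra2b* the lowest. The paper reports that read coverage in these poly(A) libraries leans towards the 3′ end of the mRNA. Levels divided by annotated length therefore compare different genes only roughly. Annotated exons span 1901 bases for *Adra1d*, with a coding sequence of 1686 bases, and 8728 bases for *Adra1a*. Over all 12 libraries, *Adra1d* had 16.9 ± 2.41 CPM per kilobase (SD, n = 12), with every library above every library of the next gene. *Adra2c* followed with 4.29 ± 0.723 CPM per kilobase and *Adrb1* with 3.16 ± 0.390 CPM per kilobase (SD, n = 12 each). These neighbours were close, with *Adra2c* above *Adrb1* in 11 of 12 libraries and overlapping ranges. *Adra2a* had 1.58 ± 0.156 CPM per kilobase (SD, n = 12), below *Adrb1* in every library and without overlap of their ranges. *Adra1b*, at 0.824 ± 0.696, and *Adra1a*, at 0.456 ± 0.123 CPM per kilobase (SD, n = 12 each), did not differ beyond their spread, with *Adra1b* above in 8 of 12 libraries. Their order also depended on the length used. With the longest annotated transcript in place of all annotated exons, a choice made after seeing the data, *Adra1a* had 0.929 and *Adra1b* 0.837 CPM per kilobase. *Adra2b* was last with 0.0765 ± 0.157 CPM per kilobase (SD, n = 12), from 0.00473 to 0.523.

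**Figure D1:**
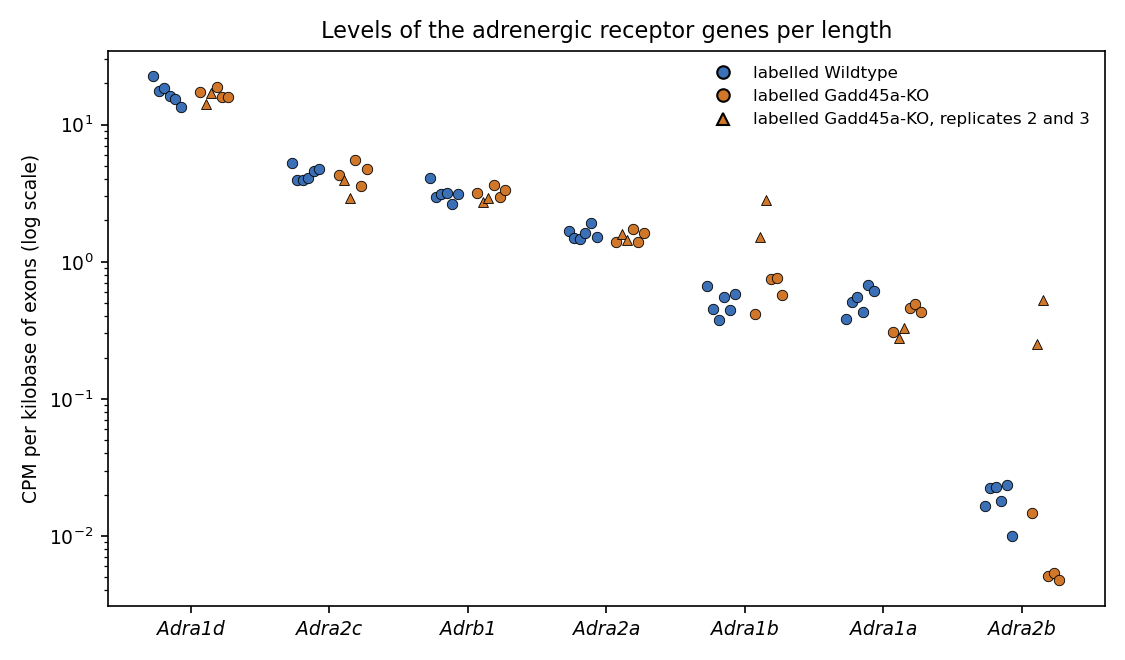
Level of each adrenergic receptor gene in CPM per kilobase of annotated exons (log axis), one point per library, ordered by the mean over 12 libraries; triangles are Gadd45a-KO replicates 2 and 3. *Adra1d* lies above all other members in every library, and the triangles of *Adra1b* and *Adra2b* stand above the other points of these genes.

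By class, the alpha1 genes held 66.3 ± 3.26% (SD, n = 6) of the summed level per kilobase of the 7 members under the label Wildtype and 66.9 ± 3.07% (SD, n = 6) under the label Gadd45a-KO, most of it from *Adra1d*. The alpha2 genes held 22.2 ± 2.96% and 21.6 ± 2.58%, and *Adrb1* 11.6 ± 0.939% and 11.6 ± 0.721% (SD, n = 6 each, in the same order of labels). The differences between the labels were smaller than the SD within either label for all 3 classes.

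No adrenergic receptor gene passed 1% false discovery rate (FDR) between the labels. Of the 7 members, 6 had enough reads for edgeR's expression filter and *Adra2b* did not. Among the 16399 genes tested, 2.62% were lower and 0.0244% higher under the label Gadd45a-KO at 1% FDR, and among the 6 members tested 0 were lower and 0 higher in edgeR's quasi-likelihood test. DESeq2 likewise called 0 members. At an unadjusted p under 0.05 there were 2 members, *Adra1a* and *Adra1b*, which differed in direction, where 13.7% of all tested genes reached the same level. The libraries of both labels overlapped for every member, whereas they did not overlap for 3.31% of tested genes. The median log2 fold change of the 6 members was -0.07, beside 0.00 for all tested genes.

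**Figure D2:**
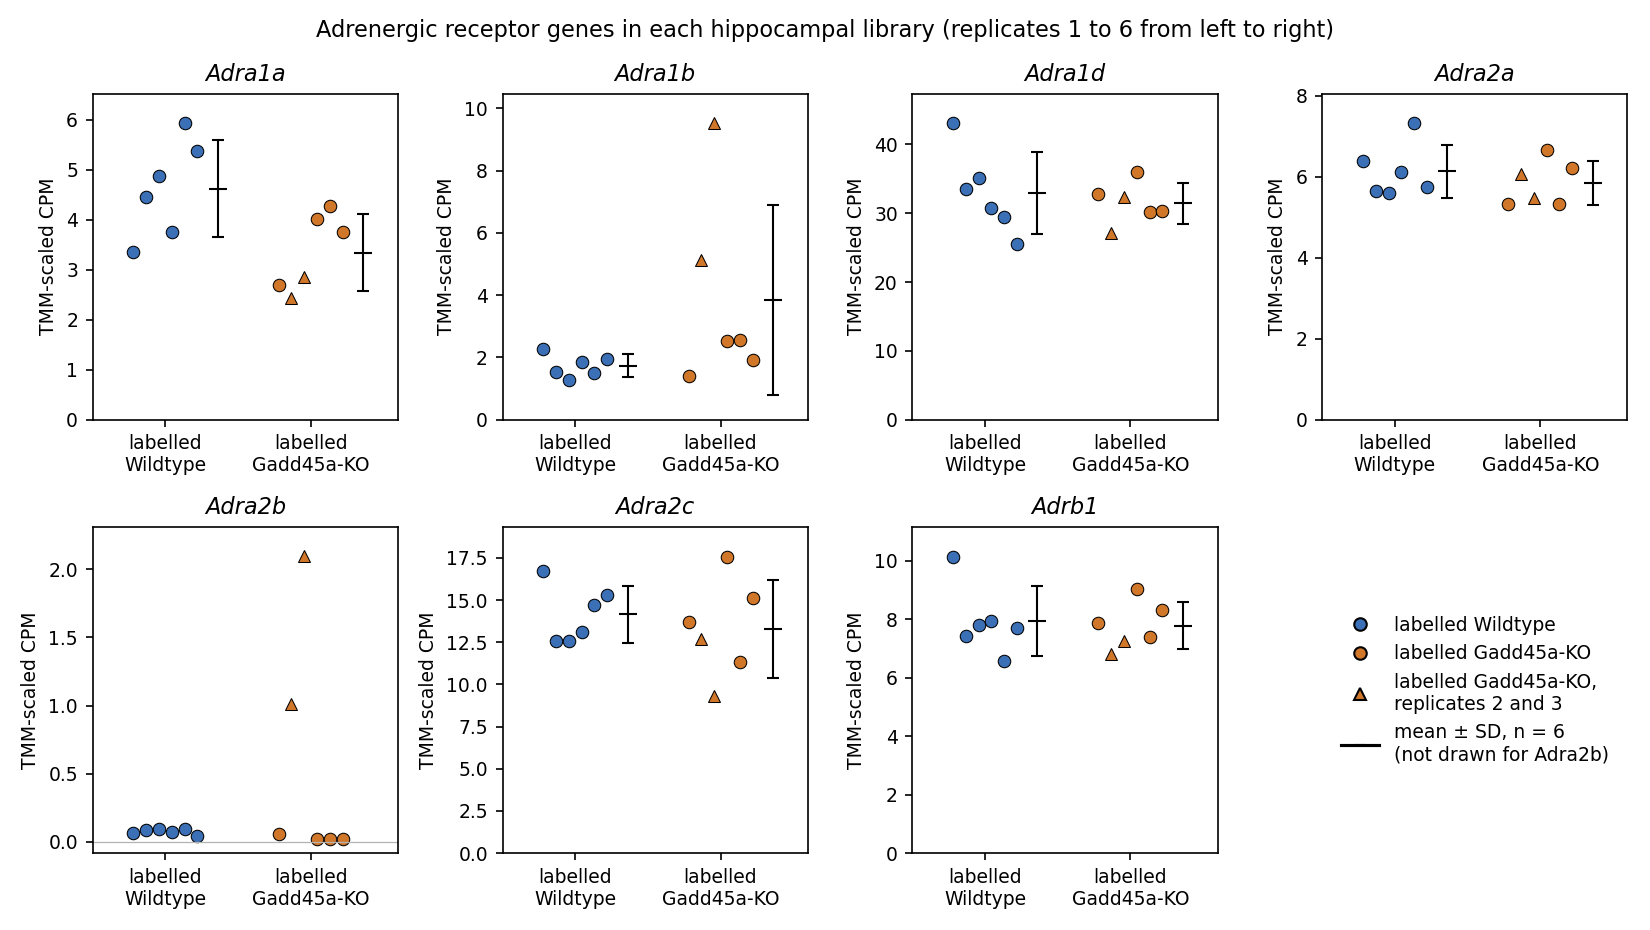
TMM-scaled CPM of each adrenergic receptor gene in the 12 libraries, replicates 1 to 6 from left to right within each label, with the mean ± SD (n = 6) drawn beside the points except for *Adra2b*; triangles are Gadd45a-KO replicates 2 and 3. The labels overlap in every panel, and the 2 triangles are the highest points for *Adra1b* (5.12 and 9.52 CPM) and *Adra2b* (1.01 and 2.10 CPM).

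*Adra1a* (ENSMUSG00000045875, chr14:67254088-67390005 of NCBIM37, plus strand) encodes the alpha1A receptor, which couples to Gq. Under the label Wildtype its lowest, median and highest libraries had 3.35, 4.66 and 5.93 CPM, from 152 to 312 reads. Under the label Gadd45a-KO they had 2.44, 3.31 and 4.27 CPM, from 111 to 198 reads. Each of the 6 Gadd45a-KO libraries lay below the Wildtype mean, and 3 of them, replicates 1, 2 and 3, were below every library labelled Wildtype, while the remaining 3 overlapped with Wildtype replicates 1 and 4. The means were 4.62 ± 0.976 and 3.34 ± 0.770 CPM (SD, n = 6 each), a log2 fold change of -0.47 (95% interval -0.82 to -0.12, standard error 0.16, unadjusted p = 0.0119, adjusted p = 0.166 in edgeR). The fold was 0.722, with a 95% interval of 0.566 to 0.920. The exact permutation test on mean log2 CPM, two-sided, had p = 0.0368 before any adjustment. The difference did not hold up at 1% FDR, and leaving out any 1 library gave log2 fold changes from -0.54 to -0.38 (adjusted p from 0.0820 to 0.363 in edgeR). Without Gadd45a-KO replicates 2 and 3 it was -0.33 (unadjusted p = 0.0650, adjusted p = 0.616 in edgeR), with an interval of -0.69 to 0.02.

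*Adra1b* (ENSMUSG00000050541, chr11:43588108-43714712, minus strand) encodes the alpha1B receptor, also coupled to Gq, and is known to be strongly expressed in the thalamus. The lowest, median and highest libraries labelled Wildtype had 1.27, 1.70 and 2.27 CPM, from 69 to 103 reads. For the label Gadd45a-KO these were 1.41, 2.54 and 9.52 CPM, and 72 to 494 reads. Gadd45a-KO replicates 2 and 3, with 5.12 and 9.52 CPM, were 2.71 and 5.04 times the median of the other 10 libraries, which lay between 1.27 and 2.56 CPM. The log2 fold change was 1.15 (95% interval 0.31 to 2.00, standard error 0.40, unadjusted p = 0.0110, adjusted p = 0.158 in edgeR), and the two-sided exact permutation test gave p = 0.0563. Within the label Gadd45a-KO the SD was 79.7% of the mean, against 20.98% within the label Wildtype. Without Gadd45a-KO replicate 3 the log2 fold change was 0.65, and without both replicates 2 and 3 it was 0.28 (95% interval -0.12 to 0.69, unadjusted p = 0.159, adjusted p = 0.883 in edgeR). The fold of 2.23 over all libraries became 1.22 without replicates 2 and 3. The 4 libraries that remained under the label Gadd45a-KO had 1.41 to 2.56 CPM. Replicates 2 and 3 were left out after seeing that thalamic markers, *Adra1b* and *Adra2b* were high in them. Leaving out the 2 highest *Adra1b* libraries lowers its fold in any case, so the smaller fold tests no link to these markers.

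*Adra2b* (ENSMUSG00000058620, chr2:127188944-127192957, plus strand) encodes the alpha2B receptor, whose mRNA in the brain is known mainly from the thalamus. Libraries labelled Wildtype had 2 to 5 reads on it, with a median of 4. Gadd45a-KO replicates 2 and 3 had 46 and 109 reads, whereas the other 4 libraries of that label had 1 to 3 reads. In CPM, replicates 2 and 3 were at 1.01 and 2.10, against 0.0190 to 0.0951 in the other 10 libraries, so that these 2 libraries carried most of the reads on the gene. The difference of mean log2 CPM between the labels was 0.75 (two-sided exact permutation test, p = 0.459). Without these 2 libraries it turned to -0.74 (two-sided exact permutation test, p = 0.0190), a difference between 2 to 5 and 1 to 3 reads per library whose size depends on the prior count of 2 added to the log2 scale. The 2 libraries were left out in view of the gene's own values as well, so this p cannot be read as a test of the labels.

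**Figure D3:**
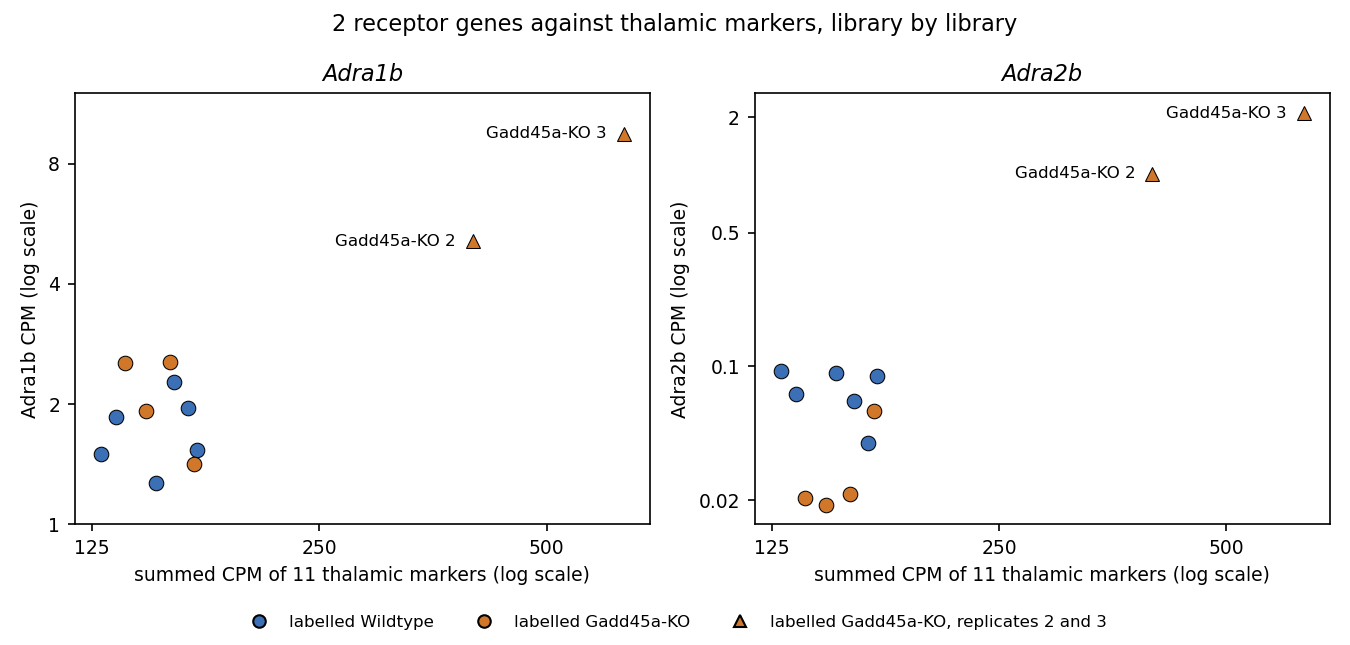
*Adra1b* (left) and *Adra2b* (right) in CPM against the summed CPM of 11 thalamic markers, both on log axes, one point per library. Gadd45a-KO replicates 2 and 3 (triangles) lie apart at the upper right in both panels, and the other 10 libraries lie between 129 and 172 CPM of marker signal.

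Both receptor genes were therefore highest in the 2 libraries with the highest thalamic marker signal, and replicate 3 exceeded replicate 2 for *Adra1b*, for *Adra2b* and for all 11 markers. The most selective markers showed the same separation. *Tnnt1* had 15.6 and 29.8 CPM in replicates 2 and 3 and 1.12 to 1.83 CPM in the other 10 libraries, and *Gbx2* had 35 and 43 reads against 0 to 5 reads. A count of 0 reads allows up to 3 reads. *Tcf7l2*, a transcription factor of the thalamus, had 24.1 and 31.5 CPM against 3.47 to 5.30 CPM. In edgeR, 0 of the 10 thalamic markers tested passed 1% FDR between the labels, 7 reached an unadjusted p under 0.05, beside 13.7% of all tested genes, and DESeq2 called 0. Their part in the levels of *Adra1b* and *Adra2b* was not tested. None of the other 5 members had both replicates 2 and 3 as its highest libraries.

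The sequences before the annotated starts of *Adra1b* and *Adra2b* are shown because these members were high in the same libraries. They come from RefSeq on GRCm38.p6, a different build from that of the counts, hold 250 bases each, and are written 5′ to 3′ in the direction of the gene. Capitals mark matches, on either strand, to the GC box GGGCGG, the TATA box TATAAA, the CCAAT box CCAAT or the cAMP response element TGACGTCA.
Adra1b, farther start (chr11:43901238-43901487, minus strand): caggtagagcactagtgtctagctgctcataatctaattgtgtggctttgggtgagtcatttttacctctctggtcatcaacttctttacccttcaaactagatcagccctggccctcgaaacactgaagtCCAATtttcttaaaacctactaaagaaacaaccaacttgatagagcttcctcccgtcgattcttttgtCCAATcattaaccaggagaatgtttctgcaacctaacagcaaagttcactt
Adra1b, nearer start (chr11:43836490-43836739, minus strand): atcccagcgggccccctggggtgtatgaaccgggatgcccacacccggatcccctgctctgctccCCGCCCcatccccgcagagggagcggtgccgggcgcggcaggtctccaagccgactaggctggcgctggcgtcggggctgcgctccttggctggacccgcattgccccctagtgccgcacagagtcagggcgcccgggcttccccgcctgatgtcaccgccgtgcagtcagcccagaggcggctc
Adra2b (chr2:127362929-127363178, plus strand): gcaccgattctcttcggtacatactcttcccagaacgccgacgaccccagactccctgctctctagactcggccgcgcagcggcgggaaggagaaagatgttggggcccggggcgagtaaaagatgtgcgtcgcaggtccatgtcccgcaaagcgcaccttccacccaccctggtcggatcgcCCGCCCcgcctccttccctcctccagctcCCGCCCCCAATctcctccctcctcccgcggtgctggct
GGGCGG matched 2 times before *Adra2b*, once before the nearer *Adra1b* start and not before the farther one, beside 32.7% of all 32851 starts with a match. CCAAT matched 2 times before the farther *Adra1b* start and 1 time before *Adra2b*, where it directly follows a GC box, and 33.8% of all starts held it. TATAAA, found at 12.4% of all starts, and TGACGTCA, found at 1.55%, matched none of the 3 windows. The window before *Adra2b* had 66% G and C with 23 CpG sites and that before the nearer *Adra1b* start 72.8% with 22, against a median of 52.4% and 6 over all starts. The farther *Adra1b* window had 41.6% and 3. The tables held starts for 5 of the 7 members, and such matches are descriptions of letters and not of binding.

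*Adra1d* (ENSMUSG00000027335, chr2:131371586-131388021, minus strand) encodes the alpha1D receptor, the third of the Gq-coupled class. It had 25.6, 32.2 and 43.1 CPM in the lowest, median and highest libraries labelled Wildtype and 27.1, 31.3 and 36.0 CPM in those labelled Gadd45a-KO, from 1234 to 1958 reads. The labels overlapped throughout, with the highest value in Wildtype replicate 1 and the lowest in Wildtype replicate 6. The log2 fold change was -0.06 (95% interval -0.28 to 0.16, adjusted p = 0.873 in edgeR), which places the fold between 0.821 and 1.11. Its exons overlap those of *Gm14285* on the other strand, and the reads were counted by strand.

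*Adra2a* (ENSMUSG00000033717, chr19:54119672-54123472, plus strand) encodes the alpha2A receptor, the main autoreceptor of noradrenergic neurons, which is also found on their target cells. Its libraries ranged from 5.59 to 7.32 CPM around a median of 5.93 under the label Wildtype and from 5.33 to 6.65 CPM around 5.77 under the label Gadd45a-KO. It was the least variable member, with SDs of 10.7 and 9.33% of the mean. The log2 fold change was -0.07 (95% interval -0.25 to 0.10, adjusted p = 0.810 in edgeR), so that folds outside 0.844 to 1.07 lay beyond the interval.

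*Adra2c* (ENSMUSG00000045318, chr5:35621215-35624410, plus strand) encodes the alpha2C receptor, coupled to Gi and Go like the other alpha2 receptors. It ranged from 12.6 to 16.7 CPM with a median of 13.9 under the label Wildtype and from 9.29 to 17.6 CPM with a median of 13.2 under the label Gadd45a-KO. The lowest value was that of Gadd45a-KO replicate 3 and the highest that of Gadd45a-KO replicate 4, so that the spread of this label enclosed the other. The log2 fold change was -0.09 (95% interval -0.36 to 0.18, adjusted p = 0.850 in edgeR), and it was 0.03 without Gadd45a-KO replicates 2 and 3 (adjusted p = 1.00).

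*Adrb1* (ENSMUSG00000035283, chr19:56796862-56799352, plus strand) encodes the beta1 receptor, which couples to Gs and raises cyclic AMP. It ranged from 6.56 to 10.1 CPM with a median of 7.75 under the label Wildtype and from 6.81 to 9.03 CPM with a median of 7.64 under the label Gadd45a-KO. Wildtype replicate 1 was the highest library, as it was for *Adra1d*, and the remaining 11 overlapped. The log2 fold change was -0.03 (95% interval -0.23 to 0.18, adjusted p = 0.952 in edgeR), and 0.04 without Gadd45a-KO replicates 2 and 3. The 4 members *Adra1d*, *Adra2a*, *Adra2c* and *Adrb1* had intervals that include no change, and their p-values do not show that the labels are alike.

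**Figure D4:**
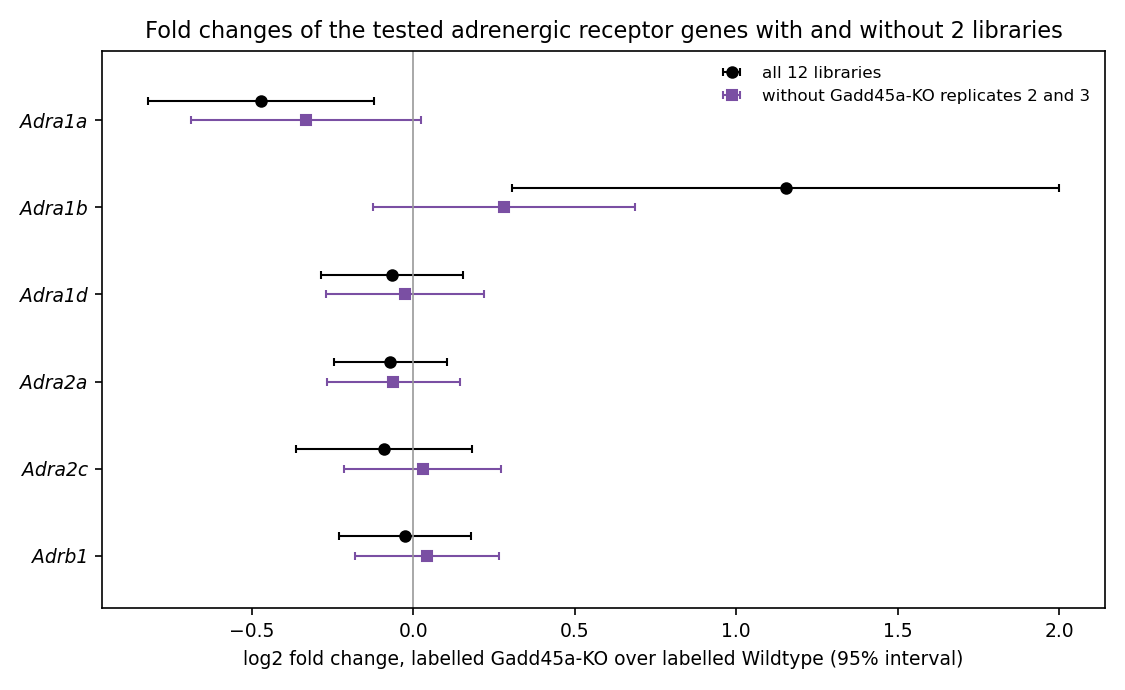
Log2 fold change (x axis) of the 6 tested receptor genes with 95% intervals in edgeR fits with all 12 libraries and without Gadd45a-KO replicates 2 and 3. *Adra1b* moves from 1.15 to 0.28 without the 2 libraries, *Adra1a* from -0.47 to -0.33, and the intervals of the other 4 members include 0 in both fits.

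Within the labels, the members did not vary as 1 group. After the mean of its label was subtracted from each gene's log2 CPM, Pearson's r between members over the 12 libraries ranged from -0.48 for *Adra1b* and *Adra2c* to 0.73 for *Adra1d* and *Adrb1*. Without Gadd45a-KO replicates 2 and 3, r for *Adra1b* and *Adra2c* turned to 0.36, the lowest value was -0.59 for *Adra1a* and *Adrb1*, and that for *Adra1d* and *Adrb1* was 0.73 over 10 libraries. *Adra2a* and *Adra2c* had r = 0.61 over 12 libraries and 0.69 over 10, and *Adra2c* and *Adrb1* had 0.59 and 0.60. *Adra1a* and *Adra1d* of the same class had r = -0.30 over 12 libraries and -0.57 over 10. These values describe libraries that all genes share, and they carry no test.

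The genes whose deviations were most like those of *Adra1a* were *Mtr*, which encodes methionine synthase (r = 0.99), *Grin2b*, which encodes the NMDA receptor subunit NR2B (r = 0.98), and *Cacna1e*, which encodes a pore-forming subunit of R-type calcium channels (r = 0.97, n = 12 libraries each, chosen as the 3 highest of all tested genes). Without Gadd45a-KO replicates 2 and 3, r was 0.99, 0.97 and 0.97 over 10 libraries. The same libraries were low for both *Adra1a* and *Grin2b*. *Grin2b* was lowest in Wildtype replicate 1 among the libraries labelled Wildtype, at 33.2 CPM, and in Gadd45a-KO replicate 2 among those labelled Gadd45a-KO, at 11.98 CPM, where *Adra1a* was also lowest in each label. It was highest in Wildtype replicate 5 and in Gadd45a-KO replicate 5, at 111 and 46.4 CPM, as *Adra1a* was. *Cacna1e* had 448 ± 58.1 and 291 ± 40.6 CPM (SD, n = 6 each) under the labels Wildtype and Gadd45a-KO and was lower at 1% FDR (log2 fold change -0.62, adjusted p = 0.00139 in edgeR), while *Mtr* was not (log2 fold change -0.26, adjusted p = 0.161). *Grin2b* had a log2 fold change of -1.46 and an adjusted p of 0.0202 in the same test. The paper lists both *Grin2b* and *Cacna1e* among the transcripts reduced in Gadd45a-KO mice. For *Grin2b* it reports lower coverage of exons but no significant change at the far end of an extended 3′ untranslated region. Whether uneven coverage along the transcript bears on the counts of *Adra1a* was not tested.

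**Figure D5:**
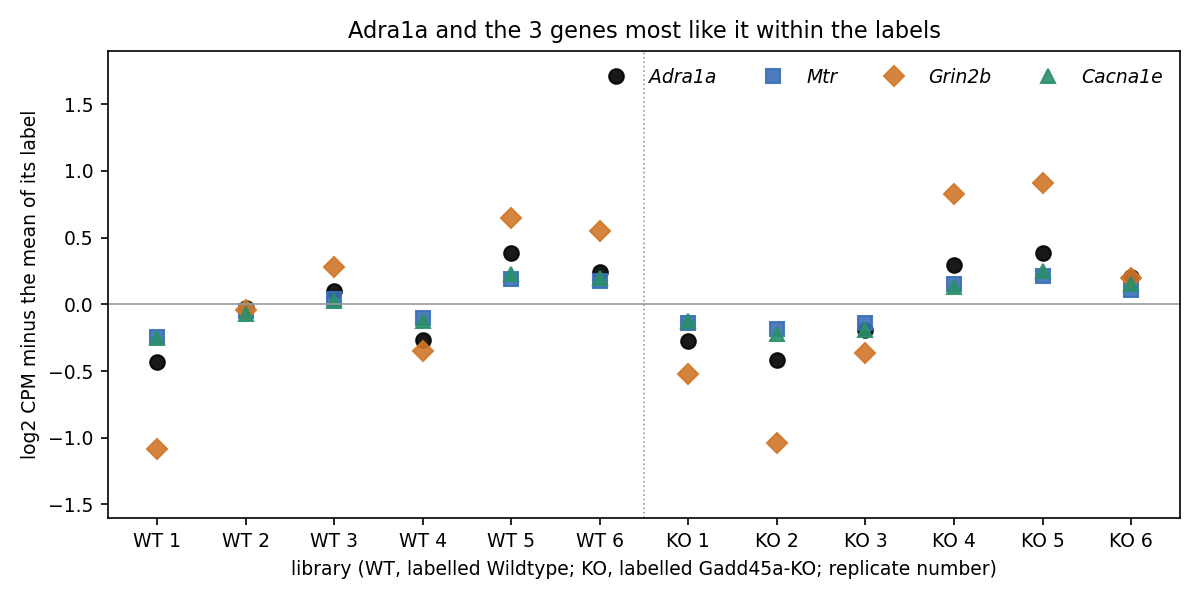
Deviation of log2 CPM from the mean of its label (y axis) for *Adra1a*, *Mtr*, *Grin2b* and *Cacna1e* in each of the 12 libraries (x axis). All 4 genes are below their mean in Wildtype replicates 1 and 4 and in Gadd45a-KO replicates 1, 2 and 3, and above it in Wildtype replicates 5 and 6 and in Gadd45a-KO replicates 4, 5 and 6.

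For *Adra1b* the most similar genes were *Cit*, which encodes citron kinase, *Plcb4*, a phospholipase C that acts downstream of Gq, and *Rasa4* (r = 0.97, 0.97 and 0.96, n = 12 libraries). These values rest in part on Gadd45a-KO replicates 2 and 3, in which *Plcb4* had 34.1 and 45.3 CPM against 15.1 to 22.8 CPM in the other 10 libraries, and without them r was 0.82, 0.79 and 0.80 over 10 libraries. *Adra1d* was most like *Prrt3*, *Zfp498* and *Sema6b* (r from 0.96 to 0.98), *Adra2a* most like *Slc25a34*, *Alg5* and *Izumo4* (0.87 to 0.94), *Adra2c* most like *Leprel2*, *Jph4* and *1110032F04Rik* (0.90 to 0.94), and *Adrb1* most like *Dohh*, *Zfp771* and *6030419C18Rik* (0.97 each), all over 12 libraries. *Jph4* encodes a junctophilin of neurons, and *Sema6b* a semaphorin.

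The genes that make, remove or relay the ligand's signal were taken as 5 lists of 44 genes in all, of which 41 were tested. In edgeR, 0 were lower and 0 higher at 1% FDR, 9 reached an unadjusted p under 0.05, and DESeq2 called 1, *Plcb1*. Of all tested genes, 2.62% were lower and 0.0244% higher at 1% FDR, and 13.7% reached an unadjusted p under 0.05. Their median log2 fold change was 0.02, beside 0.00 for all tested genes. Noradrenaline is made in the brainstem, and the genes that define its neurons were scarce in these libraries. *Dbh*, the enzyme that makes noradrenaline from dopamine, had 0.556 to 1.16 CPM, the tyrosine hydroxylase gene *Th* 0.0919 to 0.593 CPM, and the noradrenaline transporter gene *Slc6a2* 0 to 3 reads per library. Among the enzymes of breakdown, *Maob* had 21.8 ± 1.59 and 24.3 ± 1.75 CPM (SD, n = 6 each) under the labels Wildtype and Gadd45a-KO (log2 fold change 0.16, adjusted p = 0.196 in edgeR). *Ddc*, with a log2 fold change of 0.29, and *Slc22a3*, which encodes an extraneuronal monoamine transporter, with 0.90, were both highest in Gadd45a-KO replicates 2 and 3 and had adjusted p-values of 0.216 and 0.196.

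The 9 G protein genes were all tested and held log2 fold changes between -0.07 and 0.07, with 0 at an unadjusted p under 0.05. *Gnaq*, the G protein subunit used by alpha1 receptors, had 362 ± 21.3 and 355 ± 16.2 CPM (SD, n = 6 each), *Gnao1*, used by alpha2 receptors, 686 ± 23.5 and 695 ± 31.6 CPM, and *Gnas*, used by beta receptors, 853 ± 37.7 and 882 ± 29.1 CPM under the labels Wildtype and Gadd45a-KO. Among 8 effectors downstream of Gq, log2 fold changes ran from -0.31 to 0.39 with a median of -0.07. *Plcb1*, a phospholipase C abundant in hippocampal neurons, had 279 ± 19.9 and 245 ± 10.2 CPM (SD, n = 6 each), and its log2 fold change of -0.19 (adjusted p = 0.0353 in edgeR) missed 1% FDR in this test and passed it in DESeq2 (adjusted p = 0.00943). The inositol trisphosphate receptor gene *Itpr1* had a log2 fold change of -0.31 (adjusted p = 0.268) and the protein kinase C gene *Prkcb* one of -0.26 (adjusted p = 0.253). Receptor kinases, arrestins and regulators of G protein signalling, 10 genes, ranged from -0.03 to 0.21, where the largest value was that of *Rgs4* (adjusted p = 0.357), another gene highest in Gadd45a-KO replicates 2 and 3. Of 7 anchoring proteins, *Akap5*, which ties protein kinase A to beta receptors, had a log2 fold change of -0.25 (adjusted p = 0.0960) and *Akap12* one of 0.29 (adjusted p = 0.161), and the other 5 lay between both values.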

How the data were processed

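The authors prepared poly(A) libraries (TruSeq Stranded), sequenced single reads of 51 bases, aligned them with TopHat 1.4.1 to NCBIM37/mm9 with Ensembl annotation, and deposited whole counts of reads per gene made strand-specifically with HTSeq 0.5.4p3, without normalization or pooling. They tested with DESeq 1.16.0 at 1% FDR. Alignments not assigned to a gene, from 24.09 to 26.31% of those in the tables, were left out of library totals. The paper's age range for its mice is younger than that in the labels.

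Symbols came from an annotation of the same build and an earlier Ensembl release, which matched 37205 of 37991 identifiers. Counts were filtered and TMM-scaled with edgeR 4.0.16 (R 4.3.3), and labels were compared by its quasi-likelihood test without covariates. P-values were adjusted over all 16399 genes, and log2 CPM used a prior count of 2. Standard errors were taken as the absolute log2 fold change divided by the root of the F statistic, and 95% intervals use its degrees of freedom. *Adra2b* was compared by the exact permutation test (scipy 1.17.1), whose smallest p is 0.00216. The fits were tested on simulated data. Alternatives were DESeq2 1.42.0, RLE size factors, no filter, at least 10 reads in every library, 5% FDR, a transcript length offset (spline with 5 degrees of freedom), the replicate block, CPM on the plain sum of reads, and leaving out each library. Leaving out Gadd45a-KO replicates 2 and 3 together and the longest transcript as length were chosen after seeing the data. The 2 libraries were picked because thalamic markers, *Adra1b* and *Adra2b* stood apart in them. Members and lists were chosen with earlier results of these data known. Genes named are all members, *Gadd45a*, list genes whose role a sentence needs, and the 3 genes most like each member. Libraries of 1 label differed by more than counting error (over 30 pairs, chi-square divided by its degrees of freedom was 9.12 to 40.6), and each stands for 1 mouse. The labels give no batch.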

Additional observations from a re-analysis of the deposited data

Results flagged for a closer look

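A single library lay far from the other 5 of its label in 5 of 110 groups of 6 examined, over 55 genes. If the groups were independent, chance would give about 5.5. They were not all independent, since some genes were chosen for their likeness to a member. No adrenergic receptor gene was among those flagged. The rule asks for 1 library apart from the other 5, so it can pass over genes with 2 high libraries, as *Adra1b* and *Adra2b* had. *Th* in Gadd45a-KO replicate 2 had 0.593 CPM, from 27 reads, with the others between 0.130 and 0.275 CPM. *Gna11* in Wildtype replicate 4 had 148 CPM, with the others between 141 and 143 CPM. *Grk3* in Wildtype replicate 5 had 159.5 CPM, with the others between 126 and 136 CPM. *Dohh*, a gene most like *Adrb1*, had 44.1 CPM in Wildtype replicate 1, with the others between 26.6 and 31.6 CPM. *Zfp771*, also most like *Adrb1*, had 9.09 CPM in the same library, with the others between 4.20 and 5.66 CPM.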

How the results depend on the processing

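No member passed 1% FDR under any of 21 alternatives. *Adra1a* kept its sign in 20 of 20 (adjusted p from 0.0495 to 0.616 in edgeR and DESeq2) and *Adra1b* in 20 of 20 (0.0704 to 0.883). Leaving out each library in turn gave log2 fold changes in edgeR from -0.54 to -0.38 for *Adra1a* and 0.65 to 1.34 for *Adra1b*. They ran from -0.12 to 0.0365 for *Adra1d*, -0.10 to -0.00471 for *Adra2a*, -0.18 to 0.00139 for *Adra2c* and -0.0665 to 0.0661 for *Adrb1*. For *Adra2b*, which did not pass the expression filter, the difference of mean log2 CPM ran from 0.05 to 1.09. The sign of *Adra1d* turned without Wildtype replicate 1 (0.0365), that of *Adra2c* without Gadd45a-KO replicate 3 (0.00139), and that of *Adrb1* without Wildtype replicate 1 (0.0661) or Gadd45a-KO replicate 2 (0.0183) or 3 (0.00107). Without both of the latter, signs turned for *Adra2c* (0.0295), *Adrb1* (0.0423) and the difference of mean log2 CPM of *Adra2b* (-0.74). The cause was not tested. Unfiltered edgeR gave *Adra2b* a log2 fold change of 2.80 (adjusted p = 0.232) and DESeq2 one of 2.84 (adjusted p = 0.149).

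Over all genes, 430 were lower and 4 higher at 1% FDR. Lower genes numbered 661 with DESeq2, 726 at 5% FDR, 248 with the length offset, 274 with the offset and the replicate block, 199 without Gadd45a-KO replicates 2 and 3, and 239 to 467 with 1 library left out. Higher genes numbered 19 with DESeq2, 20 at 5% FDR and 3 to 4 with 1 library left out. The lists of the pathway had 1 lower gene with DESeq2 and 1 at 5% FDR. The cause was not tested beyond the settings themselves.

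The correlation of the deviations of same-numbered libraries was over 0.1 in 5 of 6 pairs (mean 0.140 against -0.0279 for different numbers), and 4 of 12 libraries correlated best with their own number. The labels do not say that a number marks a shared litter, batch or day, and the numbers were treated as pairing the samples only if all 6 pairs were over 0.1, so no block was used in the report. With the replicate block, 509 genes were lower and 5 higher, and log2 fold changes were -0.47 for *Adra1a* (adjusted p = 0.0495 in edgeR), 0.90 for *Adra1b* (adjusted p = 0.290) and between -0.11 and -0.02 for the other 4 tested members. All 14 member means kept their level on the plain sum of reads, and 6 of 7 levels per kilobase with the longest transcript.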
